A study of Mus musculus with 6 samples.

Results

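The interferon-stimulated genes examined here are 37 genes listed by symbol, of which 34 had a probe set that the array annotation gives to that gene alone, out of 22180 genes tested. Where a gene had several probe sets, the brightest over all arrays was used. Dtx3l, Gbp2 and Ifi44 had no such probe set and were not analysed here. Expression was measured on 6 single-colour arrays of total RNA from primary lung fibroblasts of adult mice of mixed strain. All arrays came from cells of genotype UBCCreERT/RSmoM2, in which a ubiquitously driven, tamoxifen-activated Cre recombinase can switch on SmoM2, a constitutively active form of the hedgehog protein Smoothened. Vehicle was given to 3 wells and 4-hydroxytamoxifen (4OHT), a metabolite of tamoxifen that activates this Cre, to 3 wells at 1 µg/ml, each for 48 h. The wells were split from isolated cells, passaged at most 3 times, and share a genotype number in the labels. The p-values therefore cover well-to-well spread, which may be technical. The drug, the activated Cre and the SmoM2 allele differ together between the groups and cannot be told apart. In bulk RNA, fewer cells of a type and less RNA per cell also cannot be told apart.

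Cells respond to type I interferons through the receptor chains Ifnar1 and Ifnar2, whose kinases Jak1 and Tyk2 activate the transcription factor Stat2. Stat2 and Irf9 act in a complex that binds interferon-stimulated response elements in the promoters of antiviral genes. Interferon gamma acts on a different element, the gamma-activated site. Fibroblasts both make type I interferon and respond to it, and many of these genes have a low tonic level in cells that have met no virus.

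The promoters of the genes were searched for these elements in RefSeq windows of 300 bases, 250 before and 50 after the transcription start (GRCm38.p6), which matched 25 of the 34 genes by symbol. The response element was searched as GAAA, any 2 bases and a second GAAA, and the gamma-activated site as TTCNNNGAA, each on both strands, and matches could overlap. At least 1 match to the response element stood in the windows of 13 of the 25 genes, against 3.99% of all 27025 genes with a window. At least 1 match to TTCNNNGAA stood in 6 of the 25, against 9.55% of all genes. A match describes the letters of a window and is not evidence of binding. The 150 bases before the outermost start with a window are shown for 5 genes that differ in their behaviour below. Matches to either element are in capitals. Isg15, Ifit1 and Igtp are genes whose fold change moved more without vehicle replicate 1 than without any other array. Ifit2 is the member that differed most clearly between the groups, and Irgm1 was not called different.
Isg15: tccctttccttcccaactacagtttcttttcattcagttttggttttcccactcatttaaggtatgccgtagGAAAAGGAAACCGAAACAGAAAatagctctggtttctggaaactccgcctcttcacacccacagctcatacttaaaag
Ifit1: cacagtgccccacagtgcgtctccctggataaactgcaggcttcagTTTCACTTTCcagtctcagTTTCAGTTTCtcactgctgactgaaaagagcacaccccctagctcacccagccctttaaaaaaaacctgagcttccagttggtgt
Igtp: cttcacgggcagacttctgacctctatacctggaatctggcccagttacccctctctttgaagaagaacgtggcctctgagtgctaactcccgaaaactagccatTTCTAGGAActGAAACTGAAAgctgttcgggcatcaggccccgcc
Ifit2: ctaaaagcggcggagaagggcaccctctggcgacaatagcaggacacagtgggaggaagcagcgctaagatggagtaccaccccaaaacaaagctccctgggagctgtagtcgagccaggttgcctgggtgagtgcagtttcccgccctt
Irgm1: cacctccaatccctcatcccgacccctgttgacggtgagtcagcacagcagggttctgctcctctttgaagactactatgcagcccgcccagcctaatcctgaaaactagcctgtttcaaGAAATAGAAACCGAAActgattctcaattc

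These stretches lie at chr4:156200819-156200968 on the minus strand for Isg15, chr19:34640739-34640888 on the plus strand for Ifit1, chr11:58199406-58199555 on the plus strand for Igtp, chr19:34550544-34550693 on the plus strand for Ifit2 and chr11:48871421-48871570 on the minus strand for Irgm1. In Isg15, which encodes a ubiquitin-like protein attached to other proteins, 3 matches overlap in a run that begins at position -78 from the start. Ifit1 holds 2 separate matches in the opposite orientation, at positions -104 and -85 from the start. Igtp, an interferon-inducible GTPase gene, holds a gamma-activated site and a response element next to each other. The stretch of Ifit2 holds no match to either spelling, and that of Irgm1 holds 2 overlapping response elements. Outside the stretch shown, Ifit2 has a match to TTCNNNGAA at position -241, which is counted above.

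Taken over all genes, the arrays were alike, which does not exclude shifts in single lists. Pearson's r over the 22180 genes, which are not independent replicates, lay between 0.997 and 0.998 within groups and between 0.995 and 0.996 across groups, and the median log2 level ranged from 7.44 to 7.47. The log2 fold change of Smo, whose probe set is not known to read the SmoM2 transcript, was -0.10 (adjusted p = 0.204). Gli1, a direct target of hedgehog signalling, rose by 0.35 (adjusted p = 0.0167), a call lost without any 1 of the 3 vehicle arrays (adjusted p = 0.0538 to 0.0543). All 12 markers of fibroblasts lay above the median level of all genes, as did 9 of 10 mural and 5 of 6 mesothelial markers but 4 of 14 macrophage, 3 of 10 endothelial, 2 of 11 epithelial, 1 of 10 T and NK cell and 0 of 7 B and plasmacytoid cell markers. Probe sets differ in brightness, so these counts describe the arrays and not the share of each cell type.

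With all 6 arrays, 4 of the 34 interferon-stimulated genes rose in 4OHT wells. These were Ifit2, Parp14, Stat2 and Oas2, by limma with an adjusted p under 0.05 over all genes. The background was 5.38% of all genes higher and 6.62% lower. No member was lower by this test or at an unadjusted p under 0.05, and 12 were higher at that unadjusted level, at which 12.2% of all genes were higher and 14.2% lower. The median log2 fold change of the members was 0.34, against -0.01 over all genes, and 31 of the 34 lay above 0, against 48.6% of all genes. The 3 values of 4OHT all lay above the 3 of vehicle in 10 members, against 15% of all genes.

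Vehicle replicate 1 stood apart from the other vehicle arrays in many of these genes. The mean log2 level of the 34 members was 8.36 in vehicle replicate 1 and 7.86 and 7.88 in vehicle replicates 2 and 3. The 4OHT arrays had mean levels of 8.42, 8.47 and 8.28, so vehicle replicate 1 lay among them. Of the 3 vehicle arrays, replicate 1 was the highest in 28 of the 34 members (82.4%), against 30.9% of all genes. The mean level over all 22180 genes was 7.78 in vehicle replicate 1 and between 7.76 and 7.79 in every other array.

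**Figure D1:**
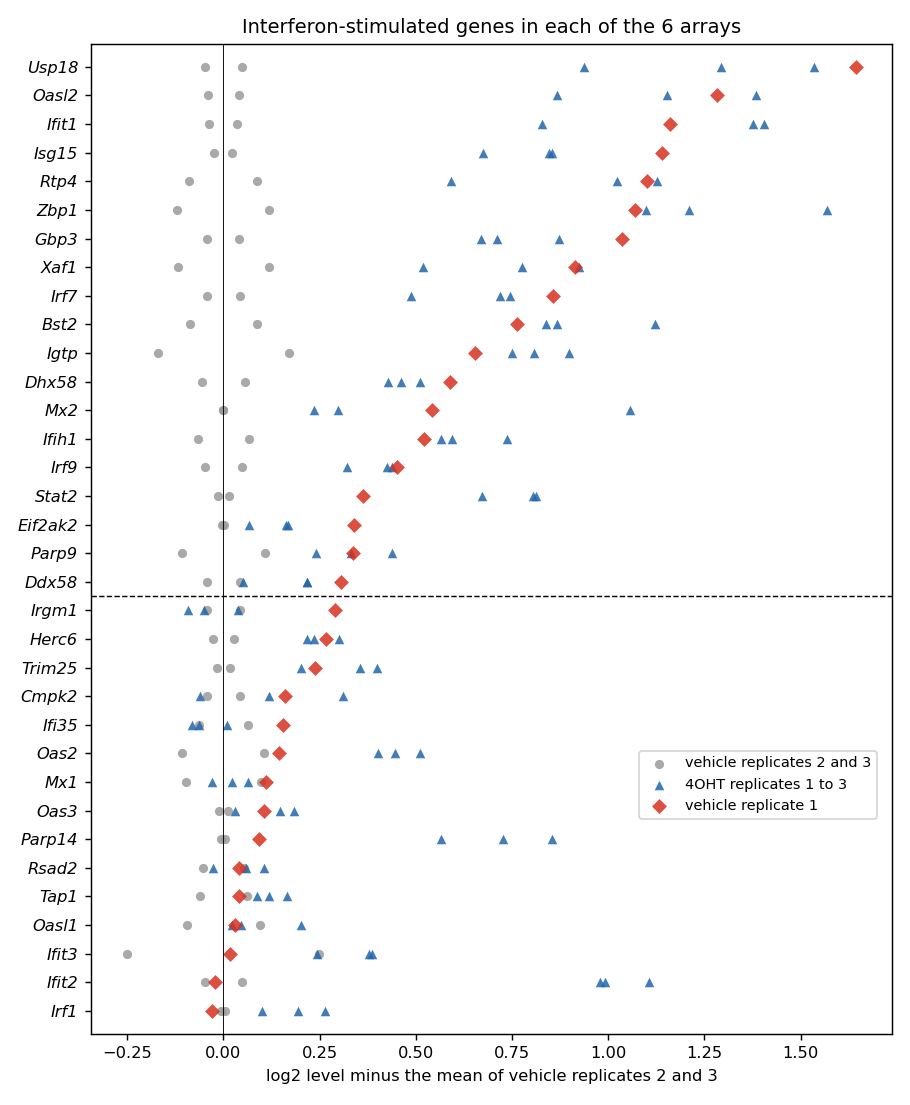
Each row is a gene and each point an array, placed at its log2 level minus the mean of vehicle replicates 2 and 3; red diamonds are vehicle replicate 1, grey circles vehicle replicates 2 and 3, and blue triangles the 4OHT arrays. Above the dashed line, in the 19 genes whose fold change moved by over 0.1 without vehicle replicate 1, the diamond lies within the range of the triangles in 6, beyond them in 8 and short of them in 5, whereas for Ifit2, Parp14 and Oas2 it lies to the left of all 3 triangles.

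The genes were therefore separated by how far the log2 fold change moved when vehicle replicate 1 was left out. It moved by over 0.1 in 19 of the 34 genes, and always upwards, against 5.13% of all genes moving in either direction. A move of over 0.2 was found in 11 of the 34, against 0.374% of all genes. The genes nearest the limit were Ddx58, which moved by 0.10 and was counted inside it, and Irgm1, at 0.097 just outside. The split rests on the move itself, so the levels, the fold changes and the calls without vehicle replicate 1 within the 2 sets follow in part from it and are given as a description.

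**Figure D2:**
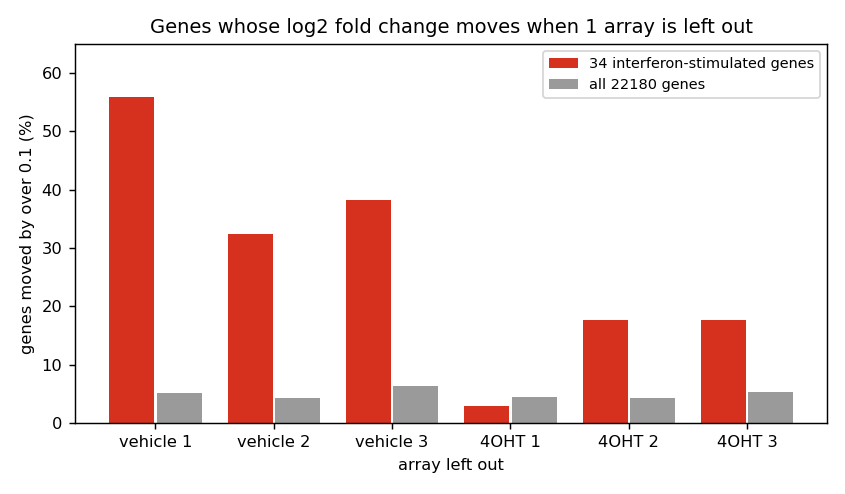
Bars give the percentage of the 34 interferon-stimulated genes (red) and of all 22180 genes (grey) whose log2 fold change moved by over 0.1 when the array on the horizontal axis was left out. The red bar is highest for vehicle replicate 1 (55.9%), while the grey bars lie between 4.17% and 6.28% for all 6 arrays.

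Leaving out other arrays moved fewer of the members. It moved 11 without vehicle replicate 2 and 13 without vehicle replicate 3, arrays that stand against vehicle replicate 1 in the same group mean, and 1, 6 and 6 without 4OHT replicates 1, 2 and 3. Over all genes vehicle replicate 1 was not unusual, since 4.28% of genes moved without vehicle replicate 2 and 6.28% without vehicle replicate 3.

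Among the 19 genes that depended on vehicle replicate 1, that array exceeded the mean of the other vehicle arrays by a median of 0.76 on the log2 scale, with a range of 0.31 to 1.64. Vehicle replicates 2 and 3 differed from each other by a median of 0.094 in the same genes. Vehicle replicate 1 lay above all 3 of the 4OHT arrays in 8 of the 19, within their range in 6 and below them in 5. Vehicle replicates 2 and 3 both lay below all 3 of the 4OHT arrays in all 19, and in 8 of the other 15 members. The share of all genes with this order was not counted. Choosing genes in which vehicle replicate 1 is high favours low values in the other vehicle arrays, so this order is only described. Of the 19, only Stat2 was called with all arrays. Without vehicle replicate 1, 15 of the 19 were higher at an adjusted p under 0.05, in a fit of 2 vehicle arrays against 3, and their median log2 fold change went from 0.44 to 0.75. The 4 that were still not called were Mx2, Eif2ak2, Parp9 and Ddx58.

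The other 15 genes kept the same calls in both fits. Ifit2, Parp14 and Oas2 were higher with and without vehicle replicate 1, and the other 12 passed in neither. Their median log2 fold change was 0.11 with all arrays and 0.12 without vehicle replicate 1. Over the 34 members, 18 were higher without that array, against 2.95% of all genes, and none was lower by limma, also at an unadjusted p under 0.05. The 14 calls gained were all among the 19 genes chosen by their move. The array left out was the one seen to be high in these members, so the count of 18 is a description and not separate evidence. Leaving out vehicle replicate 2 or 3 gave 4 and 5 members higher, against 2.51% and 3.99% of all genes. Leaving out 4OHT replicate 1, 2 or 3 gave 2, 2 and 5, against 2.8%, 2.19% and 4.45%.

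**Figure D3:**
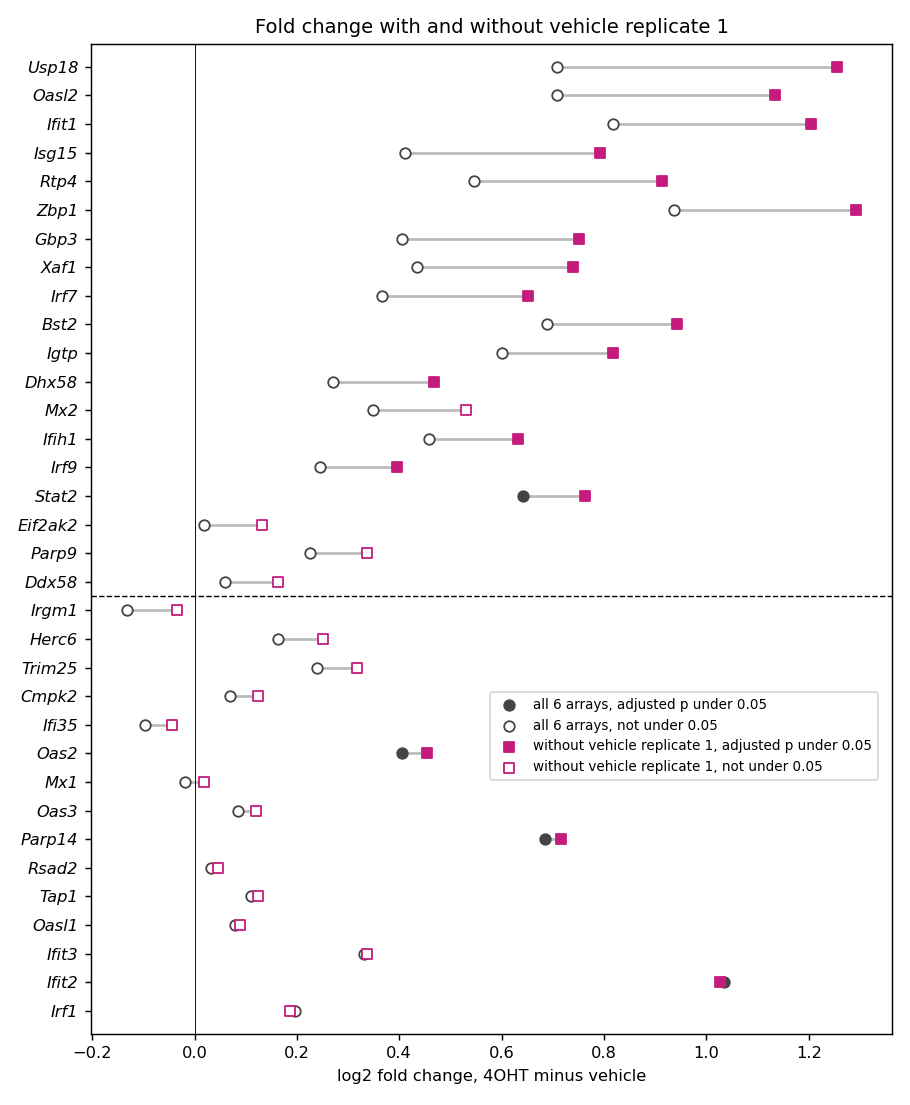
Log2 fold change (4OHT minus vehicle) of each gene with all 6 arrays (circles) and without vehicle replicate 1 (squares); filled symbols have an adjusted p under 0.05 and open symbols do not, and the dashed line separates the 19 genes that moved by over 0.1 from the other 15. There are 4 filled circles and 18 filled squares.

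Of the transcription factors, Stat2 was the member called in both fits although it moved. Stat2, a factor of the response to type I interferon, had log2 levels of 10.34, 9.97 and 10.00 in vehicle wells and 10.79, 10.79 and 10.65 in 4OHT wells. Vehicle replicate 1 was the highest vehicle array and still lay below every 4OHT array. Stat2 rose 1.56-fold, from 10.10 ± 0.21 to 10.74 ± 0.08 (mean ± SD, n = 3 wells; on the log2 scale 0.64, SE 0.107, adjusted p = 0.0125), and by 0.76 without vehicle replicate 1 (adjusted p = 0.00371). The call was lost without 4OHT replicate 1 (adjusted p = 0.0514) and without 4OHT replicate 2 (0.0538).

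Irf9 and Irf7 depended on vehicle replicate 1. Irf9, the DNA-binding part of the complex with Stat2, had levels of 10.74, 10.34 and 10.24 in vehicle wells and 10.71, 10.73 and 10.61 in 4OHT wells. Vehicle replicate 1 was thus the highest of the 6 arrays. The log2 fold change was 0.24 (adjusted p = 0.282) with all arrays and 0.39 (adjusted p = 0.0237) without that array. Irf7, which amplifies interferon production once induced, had levels of 9.19, 8.29 and 8.38 against 9.08, 9.05 and 8.82. Its log2 fold change was 0.37 (adjusted p = 0.382), and 0.65 (adjusted p = 0.0160) without vehicle replicate 1. Irf1, a factor strongly induced by interferon gamma, behaved otherwise. Its vehicle levels lay between 7.72 and 7.75 and its 4OHT levels between 7.85 and 8.01, with no overlap, and the log2 fold change was 0.20 with all arrays and 0.19 without vehicle replicate 1 (adjusted p = 0.0632 and 0.160). Without 4OHT replicate 3 it was called (adjusted p = 0.0399).

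The 4 sensor genes all moved with vehicle replicate 1. Zbp1, a sensor of nucleic acid in the Z form that can trigger cell death, had levels of 8.26, 7.07 and 7.31 in vehicle wells and 8.40, 8.76 and 8.29 in 4OHT wells. Vehicle replicate 1 lay just below the lowest 4OHT array and well above the other vehicle arrays. The log2 fold change was 0.94 (SE 0.304, adjusted p = 0.103) with all arrays and 1.29 (adjusted p = 0.00970) without it. Ifih1, which encodes the sensor of long double-stranded RNA MDA5, had levels of 9.35, 8.76 and 8.89 against 9.42, 9.56 and 9.39, and its log2 fold change went from 0.46 (adjusted p = 0.102) to 0.63 (adjusted p = 0.0102). Dhx58, a regulator of the RNA sensors known as LGP2, went from 0.27 (adjusted p = 0.340) to 0.47 (adjusted p = 0.0122). Ddx58, which encodes the sensor RIG-I, differed by 0.06 on the log2 scale (95% interval -0.18 to 0.30), and its level of 11.17 in vehicle replicate 1 was the highest of the 6 arrays.

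The 13 antiviral effector genes fell into different patterns. Ifit2, whose product binds viral RNA and restrains translation, had levels of 7.73, 7.71 and 7.80 in vehicle wells and 8.73, 8.86 and 8.75 in 4OHT wells. The vehicle arrays agreed closely and lay far below the 4OHT arrays. Ifit2 rose 2.05-fold, from 7.75 ± 0.05 to 8.78 ± 0.07 (mean ± SD, n = 3 wells; on the log2 scale 1.03, SE 0.0543, adjusted p = 0.000225), and its log2 fold change lay between 0.99 and 1.06 under every alternative tried, with a call in each. Ifit1, its neighbour on chromosome 19 and a sensor of foreign RNA caps, had levels of 9.11, 7.91 and 7.98 against 9.32, 9.35 and 8.77. In Ifit1 vehicle replicate 1 was therefore above 4OHT replicate 3. The log2 fold change of Ifit1 was 0.82 (SE 0.335, adjusted p = 0.180) with all arrays and 1.20 (adjusted p = 0.0193) without vehicle replicate 1.

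Ifit3, a partner of Ifit1, had levels of 7.80, 7.53 and 8.03 in vehicle wells and 8.03, 8.17 and 8.16 in 4OHT wells, with overlap between vehicle replicate 3 and 4OHT replicate 1. Its log2 fold change of 0.33 (adjusted p = 0.146) hardly moved without vehicle replicate 1, and it was called only without vehicle replicate 3 (adjusted p = 0.0470). Mouse Ifit3 has a near-identical neighbour, Ifit3b, whose RNA its probes may also read.

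Among the oligoadenylate synthetase genes, whose products activate the RNA-degrading enzyme RNase L, and their relatives, Oas2 and Oasl2 differed in this respect. Oas2 had levels of 6.90, 6.64 and 6.86 in vehicle wells and 7.26, 7.20 and 7.15 in 4OHT wells. The groups did not overlap, and vehicle replicates 1 and 3 were alike. Oas2 rose 1.32-fold (log2 fold change 0.41, SE 0.0755, adjusted p = 0.0182) and was also called without vehicle replicate 1 (adjusted p = 0.0300), but not without 4OHT replicate 1 (0.0678), without 4OHT replicate 2 (0.0661) or with all probe sets in the fit (0.0510). Oasl2, a relative of these genes with ubiquitin-like domains, had levels of 9.75, 8.51 and 8.43 against 9.62, 9.85 and 9.33. Vehicle replicate 1 lay within the range of the 4OHT arrays. The log2 fold change of Oasl2 was 0.71 (adjusted p = 0.262) and 1.13 (adjusted p = 0.0122) without that array. Oas3 and Oasl1 both had a difference of 0.08 on the log2 scale (adjusted p = 0.429 and 0.548), which moved by at most 0.035 without that array.

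Bst2, which encodes tetherin, a protein that holds budding virus at the cell surface, had levels of 8.08, 7.23 and 7.40 in vehicle wells and 8.18, 8.44 and 8.16 in 4OHT wells. Every 4OHT array was higher than every vehicle array, by a small margin for vehicle replicate 1. The log2 fold change was 0.69 (adjusted p = 0.0936) and 0.94 (adjusted p = 0.00849) without it. Mx2, an antiviral dynamin-like GTPase gene, was high in a single 4OHT array as well, with levels of 6.30, 5.75 and 5.75 against 6.81, 5.99 and 6.05 (log2 fold change 0.35, adjusted p = 0.438). The log2 fold change of Mx2 moved more without 4OHT replicate 1, to 0.09, than without vehicle replicate 1, to 0.53. Eif2ak2, which encodes the kinase PKR that halts translation on sensing double-stranded RNA, was highest in vehicle replicate 1 at 9.54, against 9.19 and 9.20 in the other vehicle wells and 9.26 to 9.37 in 4OHT wells (log2 fold change 0.02, 95% interval -0.22 to 0.26).

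Mx1, Rsad2 and Cmpk2 showed little difference. Rsad2, the gene of the antiviral enzyme viperin, ranged from 6.13 to 6.29 over all 6 arrays (log2 fold change 0.03, 95% interval -0.10 to 0.16). Cmpk2, a nucleotide kinase gene next to Rsad2 on chromosome 12, differed by 0.07 on the log2 scale (95% interval -0.17 to 0.31). Mx1 had -0.02 (95% interval -0.18 to 0.14), a direction that turned when the arrays were centred on their medians (0.0033). All of these, with Mx2, Oas2, Oas3 and Oasl1, lay below the median level of all genes. Outside the effectors, Dhx58, Isg15, Gbp3 and Igtp also lay below it, and these were called without vehicle replicate 1.

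Genes of protein modification included the largest dependence on vehicle replicate 1. Usp18, which removes Isg15 from proteins and blocks signalling at the interferon receptor, had levels of 10.03, 8.34 and 8.44 in vehicle wells and 9.68, 9.92 and 9.33 in 4OHT wells. Vehicle replicate 1 was the highest of all 6 arrays and exceeded the mean of the other vehicle arrays by 1.64. The vehicle wells averaged 8.94 ± 0.95 and the 4OHT wells 9.65 ± 0.30 (SD, n = 3), and the log2 fold change was 0.71 (SE 0.446, adjusted p = 0.376). Without vehicle replicate 1 it was 1.26 (adjusted p = 0.0134).

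Isg15 followed the same course. Its levels were 6.70, 5.59 and 5.54 in vehicle wells and 6.41, 6.42 and 6.24 in 4OHT wells, so vehicle replicate 1 exceeded all the 4OHT arrays. Its log2 fold change was 0.41 (adjusted p = 0.447), and 0.79 (adjusted p = 0.00485) without that array. Herc6, the mouse ligase that attaches Isg15, and Trim25, a ubiquitin ligase that acts on RIG-I, had log2 fold changes of 0.16 and 0.24 (adjusted p = 0.269 and 0.136), and 0.25 and 0.32 without vehicle replicate 1 (adjusted p = 0.0551 and 0.0629).

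The ADP-ribosyltransferase genes Parp14 and Parp9 lie near each other on chromosome 16. Parp14 had levels of 7.68, 7.60 and 7.59 in vehicle wells and 8.32, 8.45 and 8.16 in 4OHT wells. All vehicle arrays were alike and all 4OHT arrays were higher. Parp14 rose 1.61-fold, from 7.62 ± 0.05 to 8.31 ± 0.14 (mean ± SD, n = 3 wells; on the log2 scale 0.68, SE 0.0790, adjusted p = 0.00304), and its call held without any of the 6 arrays. For Parp9 the log2 fold change was 0.22 (adjusted p = 0.275) and 0.34 (adjusted p = 0.0918) without vehicle replicate 1. It moved about as far the other way without vehicle replicate 3, to 0.11 (adjusted p = 0.508).

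Interferon-inducible GTPase genes, which act on vacuoles that hold pathogens, and the antigen presentation gene Tap1 were mixed. Gbp3 had levels of 5.90, 4.82 and 4.90 in vehicle wells and 5.57, 5.73 and 5.53 in 4OHT wells, with vehicle replicate 1 the highest of the 6. Its log2 fold change went from 0.41 (adjusted p = 0.410) to 0.75 (adjusted p = 0.00631) without it. Igtp had levels of 7.19, 6.71 and 6.37 against 7.29, 7.35 and 7.44, and its log2 fold change went from 0.60 (adjusted p = 0.0994) to 0.82 (adjusted p = 0.0133). The groups of Igtp did not overlap, with vehicle replicate 1 just below the lowest 4OHT array. Without vehicle replicate 3, its lowest array, the log2 fold change of Igtp was 0.41 (adjusted p = 0.160). For Irgm1 it was -0.13 (95% interval -0.35 to 0.09), and its highest array was vehicle replicate 1 at 9.60. For Tap1, a subunit of the peptide transporter that loads class I molecules, the log2 fold change was 0.11 (adjusted p = 0.229) and moved by 0.013.

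Of the remaining members, Rtp4, a chaperone of membrane receptors that is induced by interferon, had levels of 8.38, 7.37 and 7.19 in vehicle wells and 8.30, 8.40 and 7.87 in 4OHT wells. Its log2 fold change was 0.55 (adjusted p = 0.331), and 0.91 (adjusted p = 0.0324) without vehicle replicate 1. Xaf1, a pro-apoptotic gene, had levels of 9.33, 8.54 and 8.30 against 9.20, 9.34 and 8.94, and its log2 fold change went from 0.44 (adjusted p = 0.350) to 0.74 (adjusted p = 0.0331). In both genes vehicle replicate 1 lay within the range of the 4OHT arrays. For Ifi35 the log2 fold change was -0.10 (adjusted p = 0.417), and its second probe set, which was not used, had -0.01.

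The promoter matches were also counted in the 2 sets. A window with the response element was found for 9 of 13 matched genes that depended on vehicle replicate 1 and for 4 of the other 12, against 3.99% of all genes. TTCNNNGAA was found for 3 of 13 and 3 of 12, against 9.55%. The sets are small and were cut by expression values, with Irgm1, which holds 2 response elements, just outside the limit. Whether the element goes with dependence on that array was not tested. Usp18, Zbp1, Rtp4, Dhx58, Parp9, Mx2, Parp14, Oas2 and Mx1 were not matched to a window.

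The calls among genes upstream of the members are set beside 5.38% of all genes higher and 6.62% lower. Of 9 measured interferon genes 1 was higher, Ifna2, which rose by 0.38 from a low level of 4.64 to 4.80 in vehicle wells (adjusted p = 0.0451), and the call was lost without any array other than 4OHT replicate 1. No interferon gene was lower by limma, also at an unadjusted p under 0.05. Ifnb1, the main interferon of fibroblasts, had levels of 4.26, 4.26 and 4.28 in vehicle wells and 4.54, 4.24 and 4.29 in 4OHT wells (log2 fold change 0.08, adjusted p = 0.578). Its level in vehicle replicate 1 was like that in the other vehicle wells. Of 10 measured receptor and JAK-STAT genes, Tyk2, a receptor-bound kinase, rose by 0.25 (adjusted p = 0.0212). Its call was kept on leaving out vehicle replicate 1 or 4OHT replicate 3 and lost on leaving out any other array (adjusted p = 0.0505 to 0.0781). By limma 0 of the 10 were lower, with 1 at an unadjusted p under 0.05. Ifnar1, Ifnar2 and Jak1 had log2 fold changes of 0.05, -0.10 and 0.13 (adjusted p = 0.570, 0.177 and 0.129). No gene of this list moved by over 0.1 without vehicle replicate 1, whereas 2 of the 9 interferon genes did (22.2%, against 5.13% of all genes). These were Ifng and Ifnl2, named after their values were seen, and vehicle replicate 1 was the highest of the 6 arrays for both, at 6.84 against 6.46 and 6.57 in the other vehicle wells for Ifng and 9.02 against 8.59 and 8.69 for Ifnl2.

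Among 18 measured genes of nucleic acid sensing and interferon induction, 3 rose and 3 fell, against 5.38% of all genes higher and 6.62% lower. Tlr3 and Tlr4, receptors for double-stranded RNA and lipopolysaccharide, rose by 0.36 each (adjusted p = 0.00655 and 0.00471). Rnaseh2b, a subunit of an enzyme that removes RNA from DNA, rose by 0.33 (adjusted p = 0.0274), and Samhd1, a nucleotide hydrolase gene, fell by 0.23 (adjusted p = 0.0247). The call of Rnaseh2b held only on leaving out vehicle replicate 3 and that of Samhd1 only on leaving out 4OHT replicate 1. Without vehicle replicate 1, 2 were higher and 0 lower by limma (5 lower at an unadjusted p under 0.05, as were 12.7% of all genes), and leaving out replicate 2 of either group gave the same counts. Of 19 negative regulators, Nlrx1, a mitochondrial inhibitor of antiviral signalling, fell by 0.35 (adjusted p = 0.0121), and none was higher by limma, with 1 at an unadjusted p under 0.05. Of 14 other antigen presentation genes, H2-K1, a class I heavy chain gene, rose by 0.29 (adjusted p = 0.0109) and Erap1, a peptide-trimming enzyme gene, by 0.24 (adjusted p = 0.0192); the list held 1 such call without any array other than 4OHT replicate 3.

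A further 73 measured genes known to respond to interferon showed the same array pattern in part. With all arrays 8 rose and 3 fell, against 5.38% of all genes higher and 6.62% lower. The median log2 fold change was 0.09. Rnf213, a large ubiquitin ligase gene, had levels of 9.45, 9.21 and 9.25 in vehicle wells and 10.25, 10.23 and 9.78 in 4OHT wells and rose by 0.78 (adjusted p = 0.0141), a call lost on leaving out vehicle replicate 2 (0.0561), 4OHT replicate 1 (0.0520) or 4OHT replicate 2 (0.0562). Casp4, the inflammatory caspase gene, rose by 0.43 (adjusted p = 0.00228), while the nuclear body genes Sp110 and Sp100 fell by 0.56 and 0.49 (adjusted p = 0.00203 and 0.00345). Without vehicle replicate 1, 12 were higher, against 2.95% of all genes, and 3 lower, against 930 of all 22180 genes. A move of over 0.1 was found in 17 of the 73, against 5.13% of all genes. The count of higher genes was 2 on leaving out vehicle replicate 2, and likewise for the third vehicle array and 4OHT replicate 2. It was 4 on leaving out 4OHT replicate 1 and 6 on leaving out 4OHT replicate 3. In these fits 2.19% to 4.45% of all genes were higher. The 5 of the 73 that moved by over 0.2, against 0.374% of all genes, were Lgals3bp, Phf11d, Irgm2, Apol9b and Trim30a. They are named here after their values were seen. Lgals3bp, a secreted glycoprotein gene, had levels of 11.53, 10.92 and 10.87 in vehicle wells and 11.29, 11.33 and 11.27 in 4OHT wells, so vehicle replicate 1 was again the highest array.

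**Figure D4:**
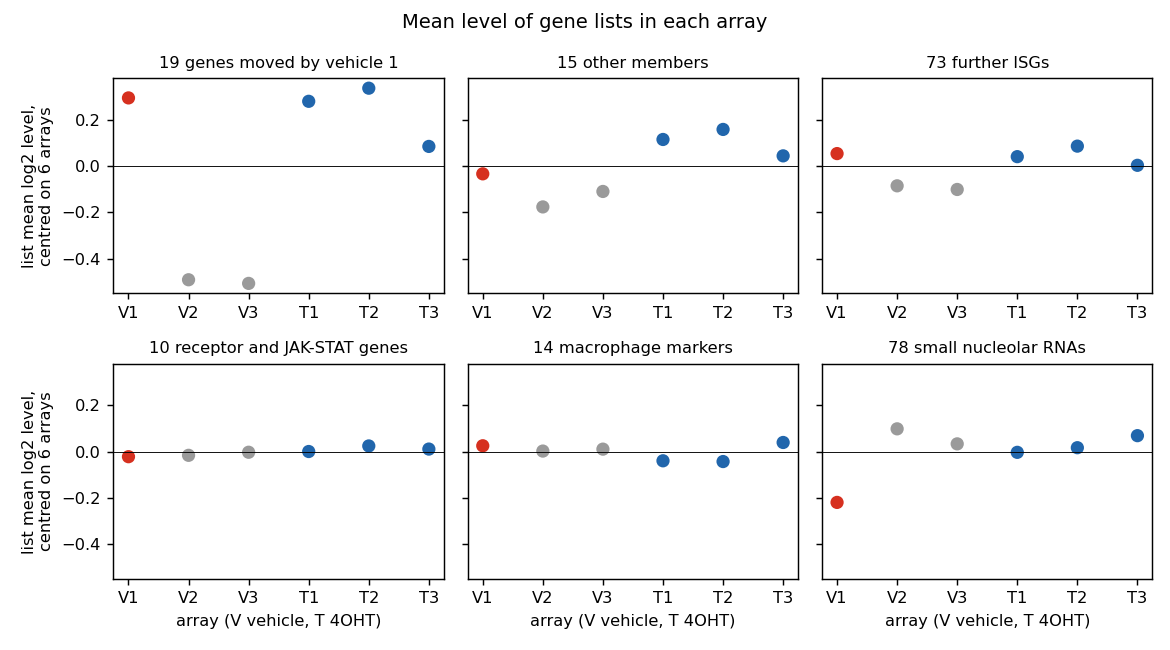
Each panel gives the mean log2 level of a gene list in each array, centred on its mean over the 6 arrays; V1 to V3 are the vehicle and T1 to T3 the 4OHT replicates. Vehicle replicate 1 (red) lies with the 4OHT arrays (blue) for the 19 genes that depend on it, is level with the other vehicle arrays for receptor genes and macrophage markers, and is the lowest array for small nucleolar RNAs.

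Markers of other cell types were measured beside these genes. The mean level of 14 macrophage markers was 7.02 in vehicle replicate 1 and at most 7.01 in the other vehicle wells, and lay between 6.96 and 7.04 in 4OHT wells. Of these, Cd68, a lysosomal protein gene, rose by 0.48 (adjusted p = 0.00140), while the complement gene C1qb fell by 0.72 (adjusted p = 0.00463) and the lysozyme gene Lyz2 by 0.24 (adjusted p = 0.0374), the last a call kept only on leaving out vehicle replicate 1. The 10 markers of T and NK cells averaged 5.92, 5.90 and 5.91 in vehicle wells and 5.85 to 5.90 in 4OHT wells. The 7 markers of B and plasmacytoid cells averaged 5.69, 5.53 and 5.67 in vehicle wells and 5.52 to 5.67 in 4OHT wells, with no call by limma in either direction and 1 marker higher at an unadjusted p under 0.05. Vehicle replicate 1 had the highest mean of this last list, and 2 of its 7 markers, the B cell receptor genes Cd79a and Cd79b, moved by over 0.1 without that array (28.6%, against 5.13% of all genes). In the other lists this held for 1 of 14 macrophage, 1 of 10 T and NK cell and 1 of 10 endothelial markers. The part of these differences in the results was not tested.

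Mural cell markers differed between the groups, and other lists also held calls. Of 12 fibroblast markers 2 were lower, and 11 had a log2 fold change below 0. Their mean level was 12.10 to 12.14 in vehicle wells and 11.99 in 4OHT wells. Of 10 endothelial markers 3 were lower and 2 higher, and of 6 mesothelial markers 2 were lower and 1 higher. Of 11 epithelial markers 1 was lower, as was 1 of 10 T and NK cell markers. Of the 10 mural markers, 7 were lower in 4OHT wells and none higher by limma, against 6.62% and 5.38% of all genes. At an unadjusted p under 0.05 by limma, 1 was higher. The median log2 fold change was -0.55. The groups overlapped in none of the 10, and 7256 of all 22180 genes had no overlap either. Rgs5, a pericyte marker, fell by 1.19 on the log2 scale (adjusted p = 0.000346), and Trpc6, a cation channel gene, fell by 1.25 (adjusted p = 0.000525). The mean level of the list was 10.83, 10.86 and 10.86 in vehicle wells and 10.34 to 10.35 in 4OHT wells, none of its markers moved by over 0.1 without vehicle replicate 1, and 7 were lower without each array in turn. This shift stands beside the fold changes of the interferon-stimulated genes, and its part in them was not tested.

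Small nucleolar RNAs, which guide the modification of ribosomal RNA, did differ in vehicle replicate 1, a set looked at after the values were seen. The mean level of the 78 measured was 7.88 in that array, 8.20 and 8.14 in the other vehicle wells and 8.10 to 8.17 in 4OHT wells. A move of over 0.1 without vehicle replicate 1 was found in 35 of the 78 (44.9%), against 5.13% of all genes. Dependence on that array was thus not particular to the interferon-stimulated genes. The part of this difference between RNA samples in the interferon-stimulated genes was not tested.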

How the data were processed

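The authors deposited log2 expression values per probe set for 6 arrays, 3 vehicle and 3 4OHT, grouped by the sample titles. The tools oligo, RMA and limma are given without versions in the submitters' processing notes. RMA corrects background, quantile-normalizes the arrays and summarizes probes, so a shift of all genes is removed and dim probe sets are compressed. RNA (100 ng) was labelled by in vitro transcription from oligo(T)-primed cDNA, per the labels' protocols. The aligner and genome build are not given in the sources used here.

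The table holds 41345 probe sets; GEO's platform annotation gives 23521 a single gene symbol, 1814 several and 16010 none. The brightest probe set per gene gave 22180 genes. Groups were compared with limma 3.58.1 in R 4.3.3 (lmFit, eBayes, two-sided, Benjamini-Hochberg over all genes, 6.70 degrees of freedom). Each array was left out in turn, and moves of the log2 fold change of over 0.1 or 0.2 were counted. Other settings tried were the replicate block, median centring, repeated quantile normalization, a filter on dim genes, mean probe sets, trended robust eBayes, array weights, a stricter threshold and all probe sets. The fit and the measure of moves were tested on simulated data. The number of arrays limits the precision.

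The text names all measured members, Smo and Gli1, the genes Ifnb1, Ifnar1, Ifnar2, Jak1 and Tyk2, and up to 4 genes of smallest p from each other list. A further gene of this rule is not reported here. The members and lists were chosen with earlier results of these data known. Same-numbered arrays were not paired by the labels. Promoter sequences are RefSeq's.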

Additional observations from a re-analysis of the deposited data

How the results depend on the processing

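No member was called lower under any alternative. The count of members called was 8 of the 23 tested among genes above the median level, where 3884 of 11090 genes were called and 15.8% were higher. Of 34 members, 8 were called with a trended and robust eBayes (8.24% of all genes higher) and 2 at an adjusted p under 0.01 (1.78%). It ranged from 2 to 18 when arrays were left out, 18 being without vehicle replicate 1. The count over all genes, 2662, was 1568 with the replicate number as a block, which kept the same 4 members, 4123 with a trended and robust eBayes, 1010 at an adjusted p under 0.01 and 1220 to 2326 with an array left out. Deviations of same-numbered arrays from their group means correlated at 0.062, -0.024 and 0.043 over genes. Vehicle replicates 1 and 3 correlated best with the 4OHT array of their own number, and vehicle replicate 2 with another number. Deviations from a mean of 3 arrays depend on each other, so these values cannot decide whether the arrays were paired. With a limit of 0.2 in place of 0.1, 11 members depended on vehicle replicate 1. Directions of members that were not called turned for Mx1 with centred arrays (0.0033) and, with single arrays left out, for Mx1 (range -0.085 to 0.019), Eif2ak2 (-0.039 to 0.132), Ddx58 (-0.012 to 0.162), Rsad2 (-0.0013 to 0.068) and Cmpk2 (-0.024 to 0.161). The cause was not tested. Ifit2 and Parp14 were called under every alternative here.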

Other observations

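Across all genes, 83 moved by over 0.2 on the log2 scale when vehicle replicate 1 was left out. Interferon-stimulated members made up 11 of them (13.3%) and the further interferon-responsive list 5 (6.02%), and vehicle replicate 1 was the high array in all 16. Another 12 were small nucleolar RNAs, and vehicle replicate 1 was the low array in all of these. Another 12 were olfactory or vomeronasal receptor genes, 7 of them high and 5 low in that array. Mir3473b had the largest move of the 83 (0.65), with log2 levels of 5.66 in vehicle replicate 1, 3.52 and 3.93 in the other vehicle wells and 4.25 to 4.87 in 4OHT wells. Trim30d, beside Trim30a and not in either list, moved by 0.27, with 8.68 in vehicle replicate 1, 8.01 and 7.71 in the other vehicle wells and 8.08 to 8.40 in 4OHT wells. These genes were picked by their values, and no test was made of them.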
